A study of Mus musculus with 4 samples.

Results

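The semaphorin, ephrin, Slit and netrin genes code for guidance molecules and their receptors. They were taken by name: probes of the scanner files whose gene name began with Sema3 to Sema7, Plxna to Plxnd, Nrp1 or Nrp2, Epha, Ephb, Efna, Efnb, Slit, Robo, Ntn or Unc5a to Unc5d. The rule found 70 of the 24389 named genes on the array, on 99 of its 39429 probes, and 1 probe stood for each gene, the brightest over both channels and all arrays. It also took Unc5cl, a related death-domain protein that is no netrin receptor, and Plxna4os1, an antisense RNA. Of the 70 genes, 64 were bright enough to be tested.

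Semaphorins signal through plexins, and most secreted class 3 semaphorins bind neuropilins as co-receptors. Ephrins are anchored in the membrane and bind Eph receptor tyrosine kinases on a touching cell, while the secreted Slits bind Robo receptors and the secreted netrins bind DCC, neogenin and the Unc5 family. These systems were first described in growing axons, and they also act in epithelial adhesion, vessel growth and the budding of the ureter from the nephric duct.

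RNA came from whole ureters, dissected from NMRI mouse embryos at stage E18.5. The mutant, ΔNp63-cKO (cKO below), was Pax2-cre/+; Trp63(dN-flox/dN-flox), so both copies of the ΔN form of Trp63, the transcription factor of basal epithelial cells, could be removed where the Pax2-cre transgene is active, which includes the nephric duct that gives rise to the ureteric epithelium. The control was Trp63(dN-flox/?), with no cre listed, so it carried at least 1 floxed allele and does not separate an effect of cre from that of the deletion. On each of 4 two-colour arrays a cKO RNA was hybridised beside a control RNA, with the red dye on the cKO for arrays 1 and 3 and on the control for arrays 2 and 4. Array 2 held a male pair and the other arrays female pairs. Nothing in the labels says that these RNAs came from separate embryos, so the p-values measure only the spread between the arrays. In the ratio fit that spread is what a term for the dye layout leaves, while each SD below includes any dye difference.

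Trp63 was lower in the cKO on every array, with a log2 ratio of -2.18 ± 0.50 (SD, n = 4), or 4.52-fold (limma, Benjamini-Hochberg adjusted p = 0.00210); whether its probe lies in the deleted part was not checked. Median spot signals lay between 460.3 and 607.3 intensity units over a local background of 31 to 82. Log ratios correlated between arrays with r from 0.528 to 0.734 across all genes bright enough to be tested, 1 probe each. The 4 basal urothelium markers fell, with a median log2 ratio of -2.36. Of 5 pan-epithelial markers Cdh1 and Epcam fell; the median was -0.46, and by array it was -0.96, -0.10, -0.44 and -0.54. Their summed normalized intensity was 313000 to 336100 in control and 195200 to 320700 in cKO RNA. None of the 4 superficial urothelium markers passed the test (median -0.54, sums of 434600 to 503600 against 266700 to 408300). None of the markers of smooth muscle, mesenchyme, endothelium or neurons passed either, with medians of 0.14, 0.15, 0.15 and 0.20, and Erbb3 was the only glial marker that did, at -0.52. Hepatocyte markers were higher in the cKO (3 of 5 passed, median 1.68, sums of 7187 to 29140 in control and 18110 to 159500 in cKO). Of 3 proximal tubule markers Cubn rose (2.27) while Slc34a1 (-0.55) and Lrp2 (-0.08) did not pass (median -0.08), and of 3 collecting duct markers Avpr2 rose (0.62; median 0.24). Each marker gene of these lists was well above background on all arrays in both genotypes. The ureters are bulk tissue, so fewer cells of a type and less RNA per cell cannot be told apart, and the part of these marker shifts in the results below was not tested.

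In the cKO, 5 of the 64 tested genes rose (7.81%) and 10 fell (15.6%; limma with a dye term, Benjamini-Hochberg adjusted p under 0.05), while of all 18179 genes tested 2.9% rose and 5.61% fell by the same rule. The netrin receptor Unc5a fell most, 5.02-fold, followed by Sema4a (1.87-fold), the semaphorin receptor Plxnb1 (1.81-fold), Sema3f (1.53-fold), Ntn4 (1.51-fold), Sema4d (1.48-fold) and Efna5 (1.45-fold). Sema3b rose most, 2.11-fold, followed by Slit2 at 1.68-fold. Sema4b, Sema4g and Robo1 fell, and Sema3e, Plxnc1 and Unc5c rose, by less than Efna5 did. The number that rose was 3 without array 4, and the number that fell was 6 without array 1 or array 3. Over all genes tested, the share called was 4.78%, 6.12%, 5.53% and 4.68% without arrays 1 to 4, against 8.52% with all arrays. With the channels fitted separately and the array as a replicate block, 8 of the 64 genes rose and 12 fell. That fit called 16.3% of all genes tested, against 8.52% in the ratio fit. Without the block 3 of the 64 rose and 6 fell, and 3.06% of all genes were called. That last fit ignores the pairing of RNAs on an array.

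The other 49 tested genes did not pass. The median log2 ratio of the 64 was 0.02, against 0.00 over all genes tested, and 62.5% of them lay above 0, against 50.7%. Without regard to sign the median size of the ratio was 0.145 in these genes and 0.0784 over all genes tested. All arrays gave the same sign for 23 of the 64 genes (35.9%), against 30.6% over all genes tested. At an unadjusted p under 0.05 in limma, 12 of the 64 rose and 13 fell. Of all 18179 genes tested, 1971 rose (10.8%) and 2331 fell (12.8%) by that rule. Ligands numbered 34, of which 3 rose and 7 fell, and receptors 30, of which 2 rose and 3 fell. Epha6, Ntn5, Plxna4os1, Unc5cl and Unc5d were not well above background on any array, and Robo3 was on 1 array in each genotype, so these 6 were not tested.

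**Figure D1:**
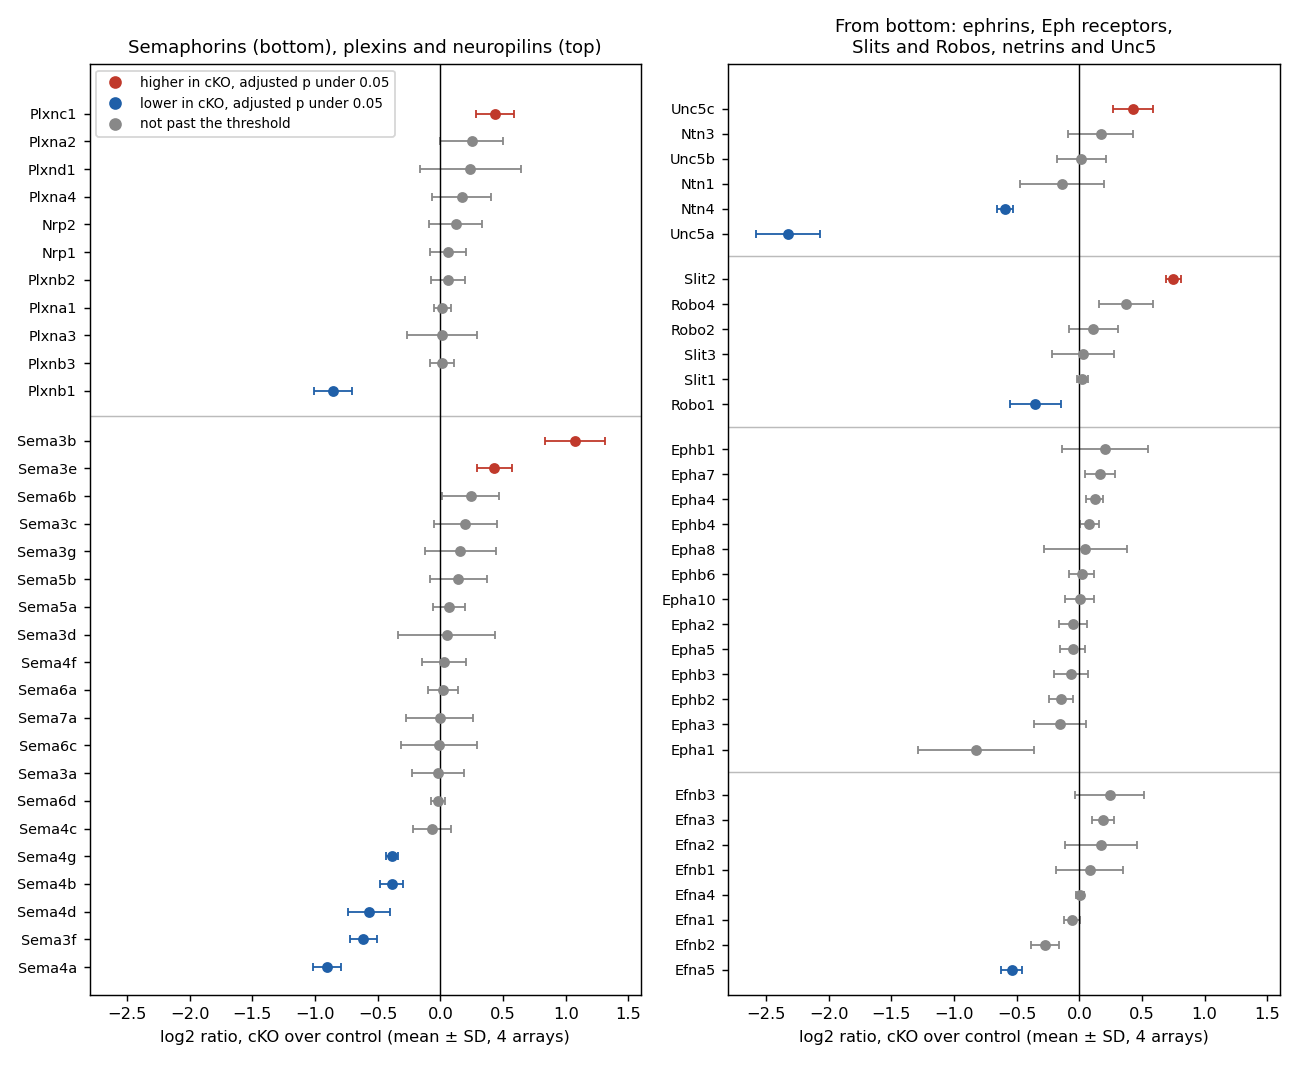
Log2 ratio of cKO over control (horizontal axis) of the 64 tested genes by family; points are means and bars are SD over 4 arrays. Red points rose, blue points fell and grey points did not pass an adjusted p of 0.05; Unc5a lies furthest left at -2.33 and Sema3b furthest right at 1.08, and the 13 Eph receptors are all grey.

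Among the netrins and their Unc5 receptors, Unc5a and Ntn4 fell and Unc5c rose. Levels here are normalized log2 intensities of 1 channel, and they compare RNAs for the same probe, never 1 gene with another. Unc5a codes for a receptor that mediates repulsion by netrins and can signal cell death. Its probe (mm9 chr13:55107318-55107377, plus strand) read 11.52, 11.43, 11.70 and 11.60 in the controls of arrays 1 to 4 and 9.14, 9.41, 9.07 and 9.33 in the cKO RNAs. The lowest control thus lay about 2 log2 units above the highest cKO RNA. The log2 ratios were -2.38, -2.02, -2.63 and -2.28, with a mean of -2.33 ± 0.25 (SD, n = 4; 95% confidence interval -2.52 to -2.14; limma adjusted p = 0.000297). It fell in each of 14 other ways of processing the arrays, with log2 ratios from -2.46 to -2.26. As Unc5a has 1 probe, other filters and the mean of probes cannot move this ratio. With balanced dye layouts, no dye term and separate channels cannot move it either.

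Unc5c, a receptor of the same family, moved the other way. Its level was 14.35, 14.08, 14.15 and 14.10 in the controls and 14.63, 14.67, 14.45 and 14.63 in the cKO RNAs, so the groups did not overlap although array 1 had the highest control. It rose by 0.43 ± 0.16 on the log2 scale (SD, n = 4), or 1.34-fold (limma adjusted p = 0.00932). A further Unc5c probe (mm9 chr3:141492190-141492249; the first lies at chr3:141497142-141497201) gave 0.56 ± 0.11, with an adjusted p of 0.00701 over all probes in limma. Unc5b, the family member best known from blood vessels, had ratios of 0.25, -0.22, 0.06 and -0.02 and did not pass (mean 0.02 ± 0.19, SD, n = 4; interval -0.15 to 0.18; limma adjusted p = 0.920).

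Of the ligands, Ntn4, a netrin that binds laminin in basement membranes, read 7.52, 7.90, 7.83 and 7.89 in the controls and 6.95, 7.26, 7.31 and 7.23 in the cKO RNAs. Each cKO value lay below each control value. It fell by 0.60 ± 0.06 on the log2 scale (SD, n = 4, limma adjusted p = 0.00339). The probe is dim, near the lowest signals called well above background (6.32 to 6.67 in cKO RNA), and the estimate was -0.95 from Agilent's processed signals and also from the deposited value table. Ntn1, the netrin best known from commissural axons, had ratios of 0.35, -0.42, -0.23 and -0.23, and the genotypes overlapped (mean -0.14 ± 0.33, SD, n = 4; interval -0.40 to 0.13; limma adjusted p = 0.526). Ntn3 gave 0.17 ± 0.26 and did not pass.

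The letters upstream of Unc5a are shown because it had the largest change of these genes. The sequences here are RefSeq's promoters (GRCm38.p6, a different build from the probe positions), 250 bases upstream of the start site, 5′ to 3′ on the strand of the gene. Unc5a lies at chr13:54949161-54949410 on the plus strand, with a GC content of 76.8%, and capitals mark its 5 GC boxes (GGGCGG or its reverse complement CCGCCC).
Unc5a: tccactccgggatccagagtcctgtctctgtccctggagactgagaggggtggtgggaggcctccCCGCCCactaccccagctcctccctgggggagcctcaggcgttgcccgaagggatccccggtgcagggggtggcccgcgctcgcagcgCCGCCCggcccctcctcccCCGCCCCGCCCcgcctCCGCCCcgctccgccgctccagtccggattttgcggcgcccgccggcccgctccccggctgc

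Among the Slits and Robos, Slit2 rose and Robo1 fell. Slit2 is a secreted repellent that limits budding from the nephric duct. It read 12.96, 12.99, 12.94 and 12.84 in the controls and 13.64, 13.72, 13.70 and 13.67 in the cKO RNAs (mm9 chr5:48696673-48696732, plus strand). Both sets were tight and well apart: the ratios were 0.69, 0.73, 0.75 and 0.83. Slit2 rose by 0.75 ± 0.06 on the log2 scale (SD, n = 4; interval 0.62 to 0.88; limma adjusted p = 0.00210), and by 0.72 to 0.78 in 14 other ways of processing. Slit2 also has 1 probe, so the same ways that cannot move the Unc5a ratio cannot move that of Slit2. Slit1 (0.02 ± 0.04) and Slit3 (0.03 ± 0.25) did not pass.

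Robo1, a Slit receptor, read 11.48, 11.95, 11.89 and 11.94 in the controls and 11.38, 11.36, 11.56 and 11.55 in the cKO RNAs. The control of array 1 lay below the cKO RNAs of arrays 3 and 4, so the levels overlapped. Within arrays the ratios were -0.09, -0.59, -0.33 and -0.39, a fall of 0.35 ± 0.20 (SD, n = 4, limma adjusted p = 0.0429). That call was lost when any 1 array was left out (limma adjusted p of 0.078, 0.132, 0.144 and 0.0882 without arrays 1 to 4). With all arrays it was also lost from Agilent's processed signals (limma adjusted p = 0.0825) and the deposited value table (0.114). A second Robo1 probe (mm9 chr16:72956710-72956769, beside chr16:73046190-73046249) gave -0.32 ± 0.13, adjusted p = 0.0493 over all probes in limma. Robo4, the Robo of endothelium, had ratios of 0.64, 0.17, 0.24 and 0.43, all above 0, without passing (mean 0.37 ± 0.21, SD, n = 4, limma adjusted p = 0.0743). Robo4 had a limma adjusted p of 0.0179 with separate channels and array blocks, a fit that called 16.3% of all genes tested. Its levels did not overlap, 12.96 to 13.46 in the controls and 13.53 to 13.89 in the cKO RNAs. Robo2, the receptor best known from the kidney's outgrowth, was at 0.11 ± 0.20 (SD, n = 4, limma adjusted p = 0.511).

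The sequence upstream of Slit2, which had the steadiest rise among the 5 genes that rose, lies at chr5:47982905-47983154 on the plus strand (GC content 69.6%), with 3 GC boxes in capitals.
Slit2: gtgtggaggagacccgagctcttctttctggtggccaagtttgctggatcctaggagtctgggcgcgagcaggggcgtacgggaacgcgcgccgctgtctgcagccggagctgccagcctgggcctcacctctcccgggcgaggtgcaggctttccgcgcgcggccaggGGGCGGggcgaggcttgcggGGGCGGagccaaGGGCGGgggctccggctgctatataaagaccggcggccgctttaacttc

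**Figure D2:**
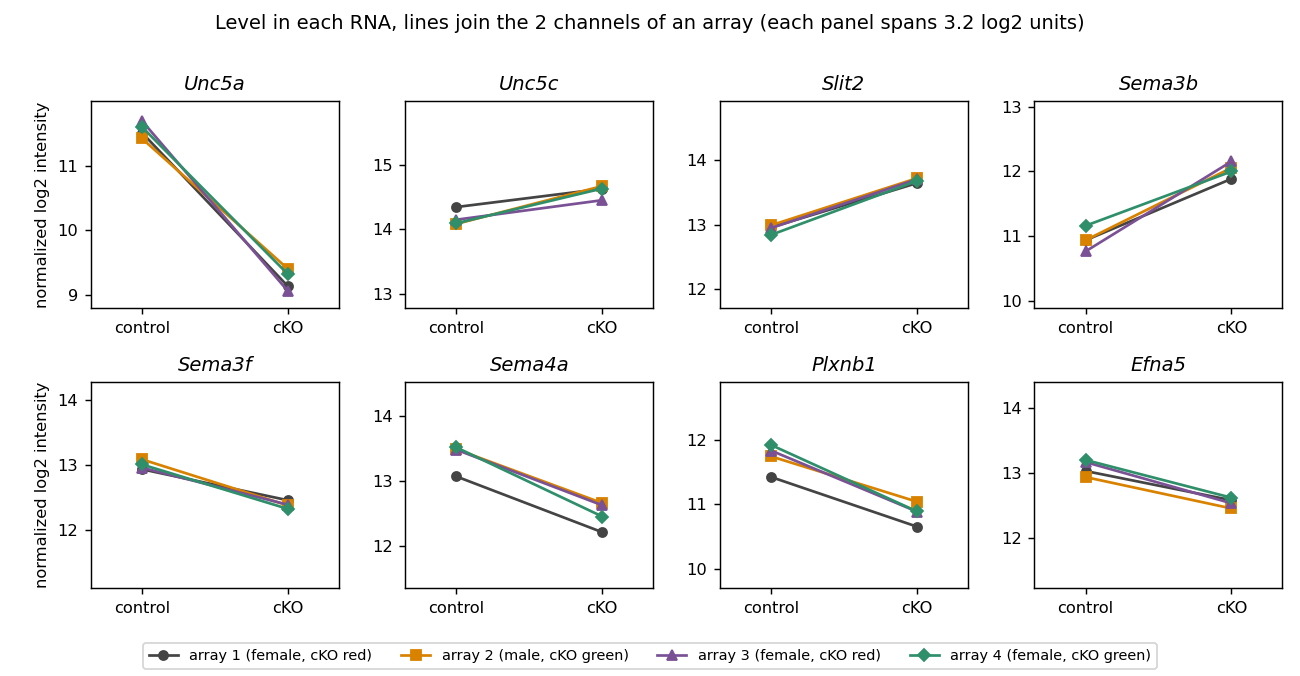
Normalized log2 intensity (vertical axis) of 8 genes in each control and cKO RNA; a line joins the channels of 1 array, and every panel spans 3.2 log2 units. For Unc5a all lines fall steeply, from 11.43 or above to 9.41 or below, and for Slit2 the 4 lines rise almost in parallel, while for Sema4a array 1 starts and ends lower than the other arrays with a similar slope.

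All 20 semaphorins were tested: 2 rose and 5 fell. Both that rose, and 1 of those that fell, were among the 7 secreted class 3 semaphorins. Sema3b, which binds neuropilins, read 10.932, 10.933, 10.76 and 11.157 in the controls and 11.883, 12.053, 12.152 and 11.997 in the cKO RNAs. The genotypes were clearly apart, and the ratios were 0.95, 1.12, 1.39 and 0.84. It rose by 1.08 ± 0.24 on the log2 scale (SD, n = 4; interval 0.84 to 1.31; limma adjusted p = 0.00384). Sema3f, which binds neuropilin 2, read 12.94, 13.09, 12.96 and 13.01 in the controls and 12.46, 12.38, 12.39 and 12.32 in the cKO RNAs. It fell by 0.61 ± 0.11 (SD, n = 4, limma adjusted p = 0.00334), with no overlap of levels.

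The probes of Sema3b (mm9 chr9:107500686-107500745) and Sema3f (chr9:107583833-107583892) lie 83.1 kb apart on the same strand, so neighbouring class 3 genes moved in opposite directions. Sema3e, which binds Plxnd1 without a neuropilin, read 10.02, 10.26, 10.14 and 10.14 in the controls and 10.26, 10.74, 10.57 and 10.71 in the cKO RNAs. The lowest cKO value, on array 1, met the highest control value at this rounding. Sema3e rose by 0.43 ± 0.14 (SD, n = 4, limma adjusted p = 0.0148), and the call was lost without array 3 (0.0629) or array 4 (0.0715). The remaining class 3 genes (Sema3a, Sema3c, Sema3d and Sema3g) gave -0.02 to 0.20. Sema3c, known from heart and vessel formation, was at 0.20 ± 0.25 (SD, n = 4; interval 0.00 to 0.40; limma adjusted p = 0.217).

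Class 4 semaphorins are transmembrane proteins that can be shed, and several bind B-type plexins. Of these 6 genes Sema4a, Sema4b, Sema4d and Sema4g fell, and Sema4c and Sema4f did not pass. Their median log2 ratio was -0.39, and by array it was -0.36, -0.34, -0.41 and -0.35. The pan-epithelial medians are given above, and their part in this fall was not tested. The 7 genes of classes 5 to 7 did not pass, here or in any of the 14 alternatives run. They lay between -0.02 and 0.24, with a median of 0.02 (at an unadjusted p under 0.05 by the same limma test, 1 of them, Sema6b, passed).

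Sema4a read 13.07, 13.49, 13.48 and 13.52 in the controls and 12.21, 12.66, 12.62 and 12.45 in the cKO RNAs (mm9 chr3:88239906-88239965, minus strand). Array 1 was lowest in both genotypes, and no levels overlapped. It fell by 0.91 ± 0.11 on the log2 scale (SD, n = 4, limma adjusted p = 0.00198). Sema4d, which binds Plxnb1, read 10.891, 11.209, 11.337 and 11.456 in the controls and 10.368, 10.852, 10.703 and 10.705 in the cKO RNAs. Its highest cKO level was just under its lowest control level. It fell by 0.57 ± 0.17 (SD, n = 4, limma adjusted p = 0.0167), and the call was lost without array 1 (0.0607) or array 3 (0.0697). With all arrays the call was also lost in the deposited value table (limma adjusted p = 0.0563).

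The Sema4d probes disagreed. The value above is from mm9 chr13:51796617-51796676, while the probe at chr13:51781462-51781521 gave -0.11 ± 0.05 (limma adjusted p over all probes 0.291) and the mean of both was -0.34. Sema4g read 10.08, 10.49, 10.54 and 10.59 in the controls and 9.70, 10.16, 10.09 and 10.20 in the cKO RNAs. Array 1 was low in both channels, so levels overlapped across arrays, while the ratios of -0.39, -0.33, -0.45 and -0.39 were close together. It fell by 0.39 ± 0.05 (SD, n = 4, limma adjusted p = 0.0135; 0.0589, 0.0652 and 0.0684 without arrays 1, 3 and 4). Sema4b read 11.33, 11.60, 11.71 and 11.61 in the controls and 10.99, 11.07, 11.33 and 11.30 in the cKO RNAs, with array 1 again the lowest in both, so levels met across arrays. It fell by 0.39 ± 0.09 (SD, n = 4, limma adjusted p = 0.0203). The call was lost without array 1 (0.0841), array 2 (0.0699) or array 3 (0.0852), and in the deposited value table (0.0655). Sema4c, a Plxnb2 ligand, was at -0.07 ± 0.15 (SD, n = 4; interval -0.25 to 0.12; limma adjusted p = 0.665).

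Of the 11 tested plexins and neuropilins, Plxnb1 fell, Plxnc1 rose and 9 did not pass, with values from 0.01 to 0.25. Plxnb1 read 11.42, 11.74, 11.83 and 11.92 in the controls and 10.65, 11.04, 10.89 and 10.89 in the cKO RNAs. It was lower in every cKO RNA than in any control, with ratios of -0.77, -0.70, -0.94 and -1.03. It fell by 0.86 ± 0.15 on the log2 scale (SD, n = 4; interval -1.05 to -0.67; limma adjusted p = 0.00384; mm9 chr9:109021856-109021915). Plxnb1 and, by its brightest probe, its ligand Sema4d thus both fell. The other Sema4d probe, given above at -0.11 ± 0.05, did not pass.

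Plxnc1 is the receptor of Sema7a. It read 11.71, 11.48, 11.67 and 11.60 in the controls and 12.30, 11.97, 11.91 and 12.03 in the cKO RNAs, without overlap. Plxnc1 rose by 0.44 ± 0.15 (SD, n = 4, limma adjusted p = 0.0287), and the call was lost without array 1 (0.0842), array 2 (0.0941) or array 4 (0.101). With all arrays, Plxnc1 also lost the call in the deposited value table (limma adjusted p = 0.0765). Its second probe gave 0.34 ± 0.12, adjusted p = 0.0412 over all probes in limma. Sema7a itself was at -0.01 ± 0.27 and did not pass.

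Among the other plexins, Plxnb2, also a receptor of class 4 semaphorins, had ratios of -0.03, 0.25, -0.06 and 0.08 (mean 0.06 ± 0.14, SD, n = 4; interval -0.08 to 0.20; limma adjusted p = 0.599). Plxna2, which pairs with neuropilins, was higher on 3 of 4 arrays (-0.03, 0.57, 0.17 and 0.28) and did not pass (0.25 ± 0.25, SD, n = 4, limma adjusted p = 0.116). It passed in 1 alternative only, separate channels with array blocks (limma adjusted p = 0.0204), a fit that called 16.3% of all genes tested. Plxnd1, the receptor of Sema3e, was at 0.24 ± 0.40. The neuropilins Nrp1 and Nrp2 were at 0.06 ± 0.14 and 0.12 ± 0.21, within their spread between arrays, and neither passed.

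**Figure D3:**
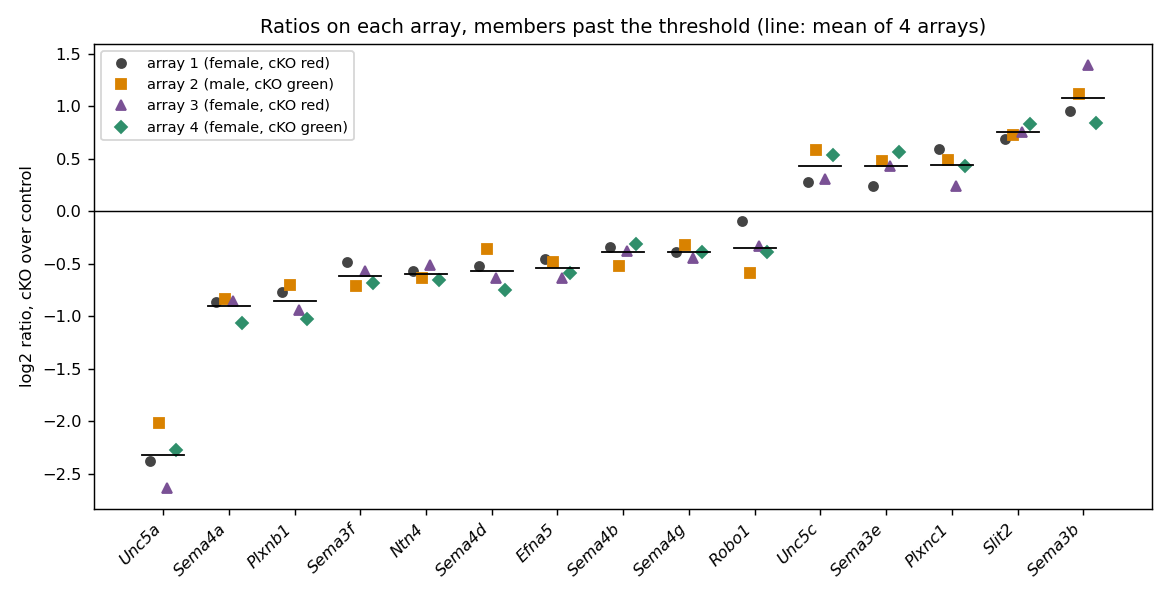
Log2 ratio of cKO over control (vertical axis) on each array for the 15 genes that passed an adjusted p of 0.05, ordered by mean; symbols mark the arrays and lines the mean of 4. All symbols of a gene lie on the same side of 0; Slit2 has the narrowest set among genes that rose (0.69 to 0.83), and the Robo1 ratio of array 1 is nearest to 0 (-0.09).

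Of the 8 ephrins, Efna5 fell and the other 7 did not pass. Efna5, a lipid-anchored ligand of EphA receptors, read 13.03, 12.94, 13.17 and 13.20 in the controls and 12.58, 12.45, 12.53 and 12.62 in the cKO RNAs (mm9 chr17:62954177-62954236). No levels overlapped, and the ratios were -0.45, -0.49, -0.64 and -0.58. It fell by 0.54 ± 0.09 on the log2 scale (SD, n = 4; interval -0.69 to -0.39; limma adjusted p = 0.00791). Efnb2, a transmembrane ephrin, was lower in the cKO on all arrays (-0.28, -0.14, -0.25 and -0.42) but did not pass (-0.27 ± 0.12, SD, n = 4, limma adjusted p = 0.0716). Efnb2 had a limma adjusted p of 0.0183 with separate channels and array blocks, a fit that called 16.3% of all genes tested. Its second probe gave -0.09 ± 0.19. Efna1, an EphA ligand and one of 3 ephrin genes within 62.4 kb on chromosome 3, was at -0.06 ± 0.06 (SD, n = 4; interval -0.19 to 0.08; limma adjusted p = 0.606), and its neighbours Efna3 and Efna4 did not pass.

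None of the 13 tested Eph receptors passed (3 at an unadjusted p under 0.05 by the same limma test: Epha1, Epha7, Ephb2). Under other processing Epha1 passed with median centring, with no dye term, without array 2 and with channels fitted separately in array blocks; Ephb1 also passed without array 2 and Epha7 in the blocked fit. Their median was 0.00, and apart from Epha1 they lay between -0.16 and 0.21. Epha1, a receptor found in epithelia, had ratios of -1.13, -0.33, -0.54 and -1.31 and is named because of these values. Its levels did not overlap (11.47 to 12.01 in the controls, 10.54 to 11.14 in the cKO RNAs). The spread between arrays was wide, and the mean of -0.82 ± 0.47 did not pass (SD, n = 4, limma adjusted p = 0.0591). By array the pan-epithelial medians, given above, were also lower on arrays 1 and 4 than on arrays 2 and 3, and the part of that shift in Epha1 was not tested. Ephb3, a receptor of B-type ephrins, was at -0.07 ± 0.14 (SD, n = 4; interval -0.24 to 0.10; limma adjusted p = 0.624).

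Epha5 gave a different answer by probe. Its brightest probe (mm9 chr5:84487348-84487407) was at -0.05 ± 0.10 (SD, n = 4, limma adjusted p = 0.673). The probe at chr5:84494886-84494945 had ratios of 0.40, 0.24, 0.80 and 1.21, and that at chr5:84483837-84483896 had 0.60, 0.21, 0.75 and 0.93. These were above 0 on every array, with means of 0.66 ± 0.43 and 0.62 ± 0.31 and adjusted p of 0.0811 and 0.0423 over all probes in limma. The brightest probe lies between the other two on the chromosome. Among the 21 tested genes with several usable probes, the probes stood within 0.2 log2 units for 18 and over 0.4 apart for 2, Epha5 and Sema4d.

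**Figure D4:**
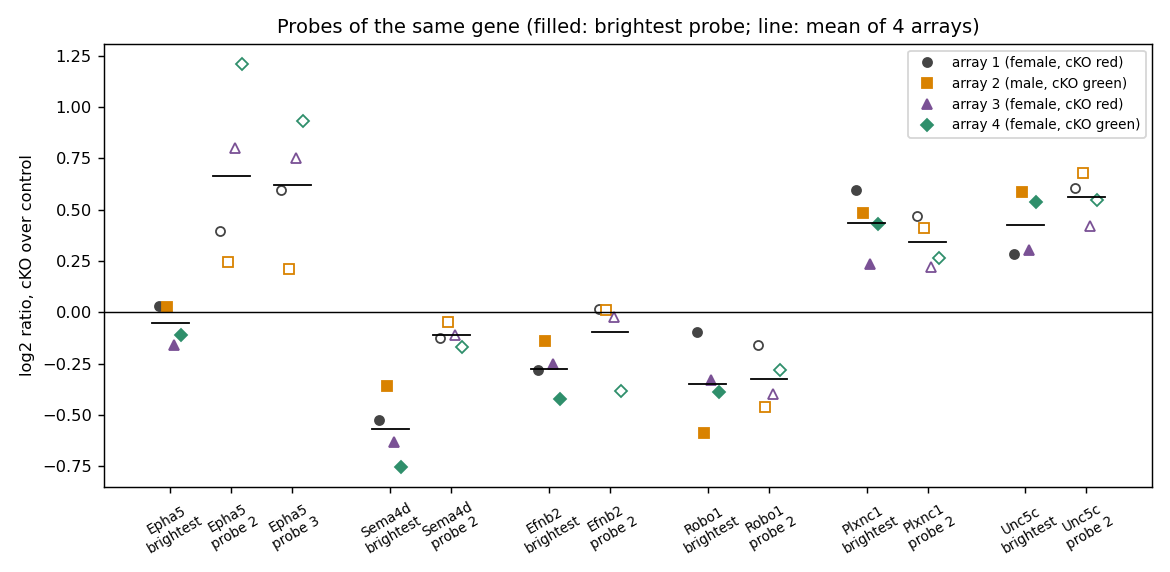
Log2 ratio of cKO over control (vertical axis) on each array for the probes of 6 genes with several probes; filled symbols are the brightest probe, open symbols the other probes and lines the mean of 4 arrays. The other Epha5 probes (means 0.66 and 0.62) lie above 0 and the brightest (-0.05) at 0, the Sema4d probes are -0.57 and -0.11, and the probes of Robo1, Plxnc1 and Unc5c lie close together.

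Other genes of these pathways came from a list of 92, of which 86 were tested: 4 rose (4.65%) and 9 fell (10.5%), beside 2.9% and 5.61% of all genes tested. Their median was 0.01. Without array 1 or array 4 none rose past the threshold, and 2 did without array 2 or array 3. The number that fell was 5 without array 2 or array 3 and 4 without array 4. With 1 array left out, 4.68% to 6.12% of all genes tested were called, against 8.52% with all arrays. Of 28 co-receptors, other ligands and sheddases 2 rose and 5 fell, and of 58 intracellular partners 2 rose and 4 fell. Sdc1, a heparan sulphate proteoglycan of epithelia, fell most, by 1.42 ± 0.11 on the log2 scale or 2.68-fold (SD, n = 4, limma adjusted p = 0.000581). The Rac activators Tiam1 and Vav3, which act below ephrins and other receptors, fell by 0.95 ± 0.13 and 0.89 ± 0.05 (SD, n = 4, limma adjusted p = 0.00182 and 0.00118). Ngef, which binds EphA receptors, fell by 0.49 ± 0.13 (SD, n = 4, limma adjusted p = 0.0117; 0.0505 without array 4).

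Dscaml1, a relative of the netrin receptor DSCAM, fell by 0.62 ± 0.10 (SD, n = 4, limma adjusted p = 0.00582), from a probe well above background in 3 of the 4 cKO RNAs. The adhesion protein Chl1, which associates with neuropilin 1, fell by 0.39 ± 0.15 (SD, n = 4, limma adjusted p = 0.0196; 0.0654, 0.0788 and 0.0882 without arrays 2, 3 and 4). Trim9, a ubiquitin ligase that binds DCC, rose by 0.41 ± 0.07 (SD, n = 4, limma adjusted p = 0.0107; 0.0541, 0.0531 and 0.0569 without arrays 1, 3 and 4). Flrt2, a ligand of Unc5 receptors, rose by 0.34 ± 0.07 (SD, n = 4, limma adjusted p = 0.0196), and the call was lost when any 1 array was left out (0.0683 to 0.0976). Hfe2 was not found under that name, and Draxin, Ntng2, Cntn2, Havcr2 and Rnd1 were not tested.

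The promoters of these genes were searched for the response element of the p53 family, which p63 binds: 2 half-sites of 10 bases, up to 13 bases apart, with at most 2 mismatches, on both strands. RefSeq's table held 76 promoters for 60 of the 70 genes, and for 13 of the 15 that changed, Sema3b and Sema3f being the others. The element was in 5 of the 76 (6.58%), against 8.45% of all 32851 promoters and 7.55% of the 17039 promoters of tested genes. Of the 19 promoters of genes that changed, 1 held it, an alternative promoter of Sema4d at chr13:51748811-51749060 on the minus strand. It runs from -161 to -132 relative to the start, with 10 bases between the half-sites and 2 mismatches, and is shown with the half-sites in capitals.
Sema4d: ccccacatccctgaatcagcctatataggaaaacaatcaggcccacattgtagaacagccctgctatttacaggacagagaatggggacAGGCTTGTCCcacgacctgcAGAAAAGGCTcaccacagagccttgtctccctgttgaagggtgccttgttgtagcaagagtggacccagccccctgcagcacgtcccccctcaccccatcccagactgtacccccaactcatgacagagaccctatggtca

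The GC box GGGCGG, on either strand, was in 71.1% of the 76 promoters, against 51.3% of those of tested genes and 32.7% of all. The tetramer CATG, which can also be part of the p53 family element and reads the same on both strands, was in 32.9%, against 44.7% and 53.9%. Among the 19 promoters of genes that changed, the GC box was in 73.7% and CATG in 52.6% (10 of 19). CATG was in 60.0% of the 15 promoters of genes that fell, which belong to 9 genes. It was in 1 of the 4 promoters of genes that rose (25.0%). Genes with several promoters, such as Sema4a and Sema4d, count more than once in these shares. The median GC content was 64.4% in these promoters, 58.4% in those of tested genes and 52.4% in all. These matches describe the letters only and were not set against any binding data.

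The male pair was also compared with the female pairs in a fit that held the dye term. Array 4 was the only female pair with the same dye layout as the male pair on array 2. The estimate was therefore array 2 minus array 4, and the ratios of arrays 1 and 3 did not enter it. For Unc5a, as an example, the log2 ratios were -2.02 on array 2 and -2.28 on array 4. With 1 array on each side this comparison cannot separate sex from the spread between arrays. It does not show that the sexes were alike or that they differed.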

How the data were processed

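The guidance genes, partner genes and cell type lists were chosen with earlier results of these data known. Total RNA from ureters was hybridised on 4 Agilent two-colour arrays. The deposited scanner files hold linear spot intensity for each channel and a log10 ratio of red over green, made by Agilent Feature Extraction (version 10.7.3.1) according to the submitters' processing notes. A deposited table gives a log2 ratio per probe, cKO against control, with a median of 0 on each array; slopes of 0.992 to 0.999 on the turned processed ratios gave its scale and direction, and the authors' steps behind its exact zeros (7718 to 12487 per array) are not given in the sources used here.

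Mean signals were background-corrected (normexp, offset 50), normalized by loess within arrays (weight 0 for control spots), and signed as cKO over control (limma 3.58.1, R 4.3.3). Flagged outlier spots (3.04% to 3.58%) were dropped, 4 spots per probe were averaged, and none was saturated. Testing required a gene to have a probe well above background in most spots on all 4 arrays in at least 1 genotype; channel levels came from Aquantile scaling. Probes kept the positions of the files (mm9), whose exon annotation was not used here. Of the probes, 28757 were named by accession and 3070 by symbol through RefSeq, 221 by an older symbol, 1742 as in the files, and 5639 had no name. The model held a dye term; p-values were adjusted over all 18179 tested genes, and intervals are unadjusted at 95%. The number of arrays limits the precision. The code was tested on simulated ratios.

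Genes named with values were those past the threshold, the 2 brightest others of each family, and the 8 partners with the lowest p; further genes were named after their values were seen. Alternatives were Agilent's processed signals, median centring, scaling between arrays, the deposited table, the mean of probes, no or a stricter filter, no dye term, each array left out, and separate channels with and without the array as a block. The array number pairs a cKO with a control RNA by hybridisation and label. The blocked fit used limma's intra-spot correlation of 0.741. It is a consensus over genes of the correlation left between channels after genotype and dye.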

Additional observations from a re-analysis of the deposited data

Results flagged for a closer look

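In 2 of 58 sets of 4 arrays examined, 1 array stood further from the others than Dixon's 95% limit allows; chance alone gives about 1 in 20. The Sema4a ratio of array 4 was -1.07, against -0.83 to -0.86 on the other arrays, all of the same sign. The median log2 ratio of the 9 tested plexins was -0.06 (-0.0556) on array 2, the male pair, and 0.06 to 0.08 on the other arrays.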

How the results depend on the processing

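Of the 15 genes that changed, Unc5a, Unc5c, Ntn4, Slit2, Sema3b, Sema3f, Sema4a, Plxnb1 and Efna5 passed in all 14 alternatives run; Sema3e, Sema4b, Sema4d, Sema4g, Plxnc1 and Robo1 kept their direction in all and lost the call in some. The alternatives are not independent checks. As the dye layouts were balanced, no dye term and separate channels leave the ratio of every gene unchanged, and only the call can differ. For a gene with 1 probe, other filters and the mean of probes also leave it unchanged. The other filters left the ratios of Plxnc1, Robo1 and Sema4d unchanged as well. The deposited table follows Agilent's processed signals closely (r of 0.9965 to 0.9975 by array across brighter probes). Without 1 array the genes that rose numbered 3 to 5 (5 with all arrays) and those that fell 6 to 9 (10 with all), while over all genes 281 to 352 rose and 555 to 760 fell. With fewer arrays the fit has fewer residual degrees of freedom. Partner genes that rose (4) numbered 0 to 2 without 1 array and 2 in the deposited table, and those that fell (9) numbered 4 to 7 without 1 array.

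With separate channels and the array as a replicate block, 8 guidance genes and 10 partners rose, and over all genes 1236 rose and 1732 fell. Without the replicate block 3 guidance genes rose and 6 fell, 0 partners rose and 3 fell, and over all genes 120 rose and 437 fell. This unblocked fit ignores the pairing of RNAs on an array. The blocked fit added Efnb2 (adjusted p = 0.0183), Robo4 (0.0179), Plxna2 (0.0204), Epha1 and Epha7. Efnb2 also passed with median centring (limma adjusted p = 0.0467) and with no dye term (0.0383), and Robo4 with no dye term (0.0427). From the deposited values, 258 genes rose and 592 fell over all genes (4.68% called), and 11 guidance genes passed. Plxnc1, Robo1, Sema4b and Sema4d lost the call there. The cause of these differences was not tested.

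Some directions near 0 reversed: Epha5 was 0.41 as the mean of its probes (adjusted p = 0.0637), and with 1 array left out Unc5b ranged from -0.0351 (without array 4; -0.0319 without array 1) to 0.0683, Ntn1 from -0.281 to 0.00853 (without array 3) and Sema4c from -0.138 to 0.00446 (without array 4). Signal over background limits the dim probes of Sema6b, Epha10, Sema4f, Slit1, Epha8 and Ntn4 (mean control levels of 6.998 to 7.78 log2 units), and the 6 genes not tested.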
